A study of Homo sapiens with 18 samples.

Results

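The genes described here are the host genes of small nucleolar RNAs that make no protein, together with a few other well-known long noncoding RNAs of the cell. They were chosen by a rule on the symbol that uses no measured value: every gene named SNHG followed by a number (28 genes), and GAS5, MALAT1, NEAT1, KCNQ1OT1, PVT1, H19, MEG3, DANCR and EPB41L4A-AS1 (9 genes). This gave 37 of the 58825 genes in the count tables, of which 31 are taken here as snoRNA host RNAs. SNHG27 and SNHG28 are counted among the 31 by their symbol, though no annotated snoRNA lies within their RefSeq span. RNA was measured in OVCAR-3, an established line of high-grade serous ovarian carcinoma grown in culture, in 18 libraries. Cells received 1 µM i-BET858, 1 µM i-BET151 or the solvent DMSO for 4 or 24 h, all in stripped medium, with 3 biological replicates in each of the 6 groups. Both compounds are BET inhibitors, which displace bromodomain proteins from acetylated chromatin. All groups are the same single cell line, so the replicates are not separate tumours.

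A small nucleolar RNA (snoRNA) guides the chemical modification of ribosomal and spliceosomal RNA. Box C/D snoRNAs guide ribose methylation and box H/ACA snoRNAs guide the conversion of uridine to pseudouridine. Most human snoRNAs are cut out of the introns of longer host transcripts. Some hosts encode proteins, often those of the ribosome. Others, the SNHG genes and GAS5, leave a spliced noncoding RNA whose short reading frames make several of them substrates of nonsense-mediated decay, a pathway coupled to translation. Many hosts of both kinds begin with a terminal oligopyrimidine (TOP) tract, a C followed by pyrimidines at the very start of the RNA. MALAT1 and NEAT1 stay in the nucleus, where MALAT1 gathers in splicing speckles and NEAT1 builds paraspeckles. H19, MEG3 and KCNQ1OT1 are transcribed from imprinted clusters, and PVT1 lies next to the MYC gene. The libraries measure the poly-A host RNA and not the snoRNAs themselves, and a change of level can come from synthesis or from decay, which these counts cannot tell apart. In RNA from whole cultures, fewer cells of a kind and less RNA per cell cannot be told apart either.

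To show what a host carries, 2 snoRNAs of hosts whose RNA rose at 4 h are printed here from GRCh38, 5′ to 3′. SNORD50A lies in SNHG5 on the minus strand at chr6:85677294-85677368, and its C box and D box are in capitals. SNORA24 lies in SNHG8 on the plus strand at chr4:118279190-118279320, and its ACA box, 3 bases before the 3′ end, is in capitals.
SNORD50A: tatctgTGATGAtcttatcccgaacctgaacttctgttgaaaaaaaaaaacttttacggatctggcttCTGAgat
SNORA24: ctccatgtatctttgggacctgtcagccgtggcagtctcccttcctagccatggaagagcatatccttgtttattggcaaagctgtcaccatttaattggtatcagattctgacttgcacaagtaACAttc

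The start sites of 10 hosts that rose or fell are shown because a TOP tract, where a host has one, lies at the first bases of the RNA. Each window runs from 10 bases before to 30 bases from the RefSeq start, in the direction of transcription (RefSeq, GRCh38.p14), and CTTTT or CTTTC between 10 bases before and 20 bases after the start is in capitals. The first 5 hosts are those that rose after 4 h of i-BET858 and have an entry, and the last 5 fell after 24 h of it, as did SNHG8. The windows are at chr1:28581844-28581883 (SNHG12, minus strand), chr6:85678704-85678743 (SNHG5, minus), chr4:118278752-118278791 (SNHG8, plus), chr17:16438977-16439016 (SNHG29, plus), chr5:112160516-112160555 (EPB41L4A-AS1, plus), chr5:139274091-139274130 (SNHG4, plus), chr17:76557754-76557793 (SNHG16, plus), chr5:9546190-9546229 (SNHG18, plus), chr20:38446644-38446683 (SNHG11, plus) and chr20:38435299-38435338 (SNHG17, minus).
SNHG12: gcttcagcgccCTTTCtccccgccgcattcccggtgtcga
SNHG5: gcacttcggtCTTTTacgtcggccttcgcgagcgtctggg
SNHG8: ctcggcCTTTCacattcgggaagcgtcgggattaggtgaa
SNHG29: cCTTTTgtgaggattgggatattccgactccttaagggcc
EPB41L4A-AS1: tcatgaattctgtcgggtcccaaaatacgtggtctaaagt
SNHG4: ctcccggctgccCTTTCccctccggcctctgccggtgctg
SNHG16: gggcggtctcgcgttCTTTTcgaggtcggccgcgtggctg
SNHG18: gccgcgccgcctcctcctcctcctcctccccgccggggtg
SNHG11: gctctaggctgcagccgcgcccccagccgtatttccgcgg
SNHG17: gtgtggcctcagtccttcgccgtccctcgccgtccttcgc

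Of the 37 genes, 30 had a promoter of 300 bases in the RefSeq table. CTTTT or CTTTC stood near the start, on the sense strand, in 8 of 27 snoRNA hosts (29.6%) and in 0 of the 3 other genes, against 9.42% of 27305 genes with a promoter. GCATGCG, searched on both strands of the whole promoter, was in 5 of 30 (16.7%), among them SNHG1, SNHG3 and SNHG8, against 4.74% of all genes. CACGTG, the E-box that MYC binds, was in 2 of 30 (6.67%), SNHG7 and SNHG30, against 8.77% of all. TATAAA, searched on the sense strand 40 to 20 bases before the start, was in 4 of 30 (13.3%), among them MALAT1, against 2.85% of all. These are matches of letters in a window, given as a description without a test.

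Library totals were 27323969 to 46299994 counts (median 32267434), and the 37 genes together took 0.0910 to 0.133% of them. Levels are given as CPM, counts scaled to library size with TMM factors over all 18 libraries. All 10 epithelial and ovarian markers (such as KRT18 and CLDN4) were detected, with summed levels of 6683 to 12072 CPM in each library. The 8 stromal markers summed to 21.6 to 51.2 CPM and the 8 immune and endothelial markers to 0.973 to 6.78 CPM. The epithelial sum moved with treatment. At 4 h it was 8557 to 10142 CPM with DMSO, 11380 to 12072 CPM with i-BET858 (3 of 10 markers rose and 0 fell, beside 14.5% and 16.3% of all genes) and 9650 to 10188 CPM with i-BET151 (0 called). At 24 h it was 8950 to 10325 CPM with DMSO, 6683 to 7212 CPM with i-BET858 and 6743 to 7312 CPM with i-BET151. With i-BET858 at 24 h, 1 epithelial marker rose (CLDN4, log2 fold change 0.43) and 5 fell (the largest fall in KRT18, −1.36), beside 20.5% and 21.3% of all genes, and with i-BET151 0 rose and 5 fell, beside 17.2% and 16.6%. Of the other markers tested at 24 h, COL1A2 fell with i-BET858 (−2.12) and no other was called. The part of these shifts in the results was not tested. Replicate 3 stood apart in every group: its libraries held 17817 to 20642 genes with a count, against 23674 to 24947 in replicates 1 and 2. Of the 29 members with a mean of at least 1 CPM, 7 were lower in replicate 3 than in replicates 1 and 2 in 6 of 6 groups and 6 were higher in 6 of 6. The lower ones were KCNQ1OT1, SNHG1, NEAT1, SNHG20, GAS5, SNHG19 and SNHG14, with median log2 differences of −1.73 for KCNQ1OT1 to −0.30 for SNHG14. The higher ones were SNHG9, SNHG31, H19, SNHG6, SNHG16 and SNHG29, with medians of 1.00 for SNHG9 to 0.33 for SNHG29. Whether this moved a result was tested by leaving replicate 3 out, and by fitting the replicate number as a block.

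In the 6 DMSO libraries, the highest level per kilobase of exon was that of SNHG19, with a mean of 44.3 CPM per kb over 0.614 kb. SNHG16 (26.1 CPM per kb), GAS5 (20.2), SNHG29 (13.9), SNHG7 (13.6) and MALAT1 (10.6) followed. For each of the first 10 genes in this order, the range over the 6 libraries overlapped that of the next. Further down were SNHG8 (4.77 CPM per kb), SNHG15 (3.20), SNHG18 (2.57), H19 (2.34), NEAT1 (2.31 over 22.8 kb), SNHG12 (0.770), PVT1 (0.154) and KCNQ1OT1 (0.0214 over 92.6 kb). These lengths join the exons of all annotated transcripts, so a gene with long rare transcripts is placed too low. MEG3, SNHG27 and SNHG28 had no count in any library, SNHG32 had 1 count in 1 library, SNHG22 at most 5 counts and SNHG25 at most 14. SNHG26 reached 25 counts and passed the filter on low counts only at 4 h, so 31 members were tested at 4 h and 30 at 24 h.

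The first comparison asked what i-BET858 did to these RNAs within 4 h. It raised 6 snoRNA hosts, SNHG12, SNHG9, SNHG8, SNHG5, EPB41L4A-AS1 and SNHG29, and lowered none. A call here is a Benjamini-Hochberg adjusted p under 0.05 in edgeR's quasi-likelihood test over all genes. The 6 of 31 stand beside 14.5% of all genes called higher and 16.3% called lower, and 2 of the 6, SNHG12 and SNHG9, changed at least 2-fold, as did 14.1% of all genes. The share that rose is near that of all genes. The median log2 fold change of the tested members was 0.30, against 0.02 over all genes. When counts were scaled by library totals alone, which shifted the median of all genes to −0.14, 4 members were called higher (SNHG12, SNHG9, SNHG8, SNHG5) and 2 lower (SNHG16, SNHG17). Without DMSO replicate 1 the count was 2, and without i-BET151 replicate 3 it was 10. For these fits the shares of all genes are not given here, and the counts are not read as a result about the members.

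**Figure D1:**
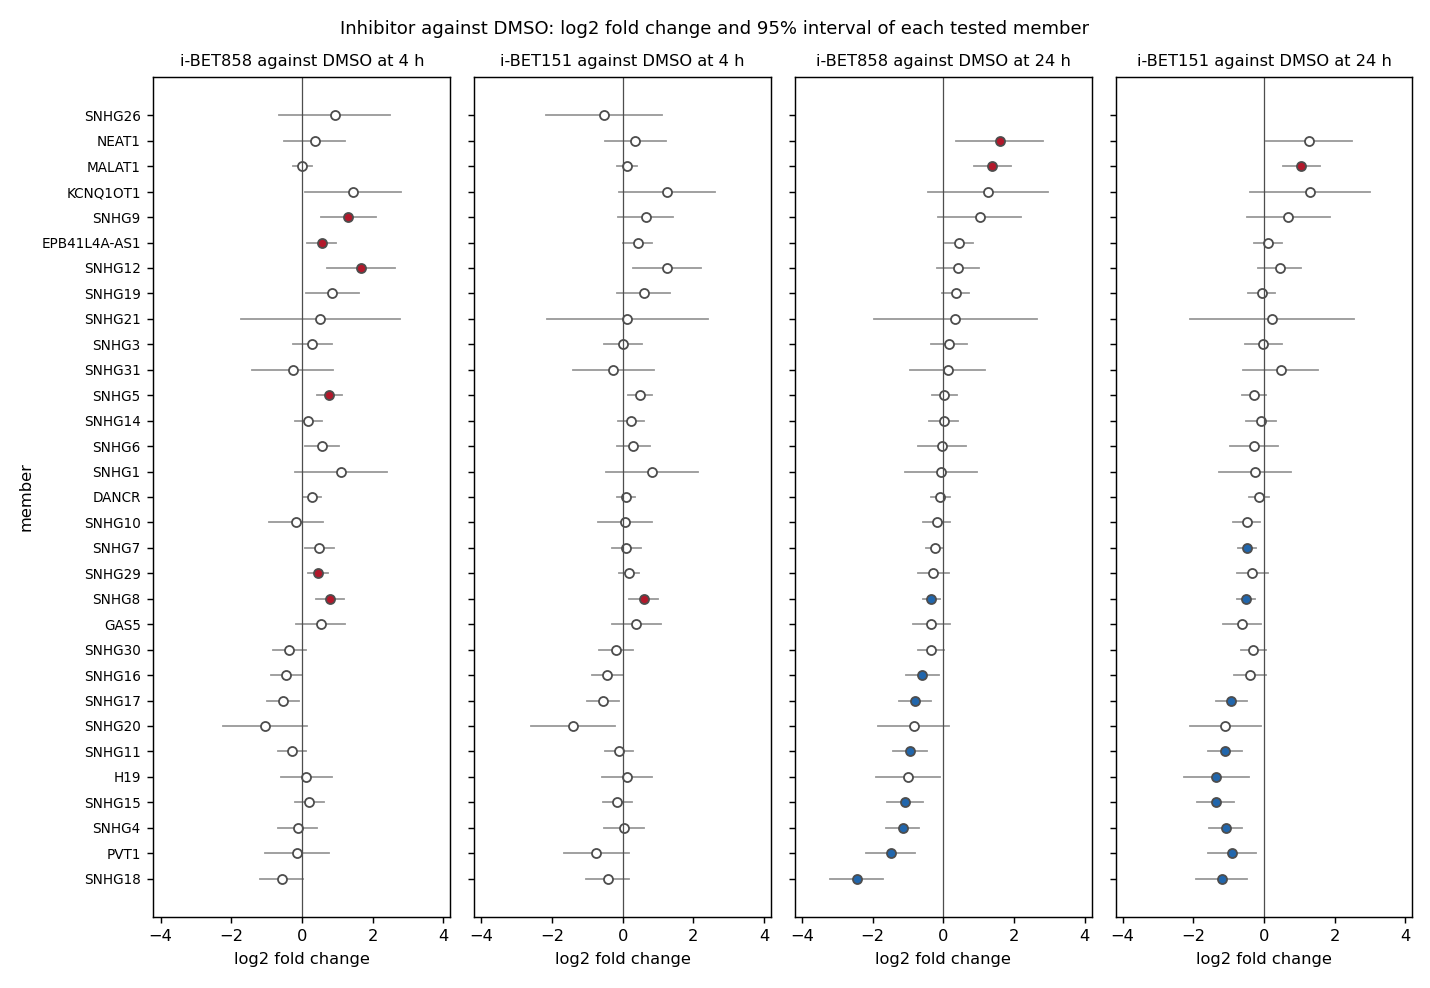
Log2 fold change against DMSO (x axis) of each of the 31 tested members (y axis), in 1 panel for each inhibitor and time, with its 95% interval as a line; red points were called higher, blue points lower, and open points did not pass the test. At 4 h the filled points lie to the right and are snoRNA hosts, and at 24 h those to the left are 8 with i-BET858 and 9 with i-BET151, while MALAT1 lies to the right in both panels.

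SNHG12, host of 4 snoRNAs on chromosome 1, had levels of 1.90, 5.07 and 2.76 CPM with DMSO at 4 h and of 15.7, 10.2 and 5.39 CPM with i-BET858, in replicates 1, 2 and 3. Each treated library was above each DMSO library. Its log2 fold change of 1.68 (SE 0.44, adjusted p 0.012) was the largest among the members tested, and rested in part on replicate 1. In replicate 1 the log2 difference was 3.01, against 1.00 in replicate 2 and 0.95 in replicate 3. The call was lost without DMSO replicate 1 (log2 fold change 1.41, adjusted p 0.057) and without i-BET858 replicate 1 (1.26, 0.059).

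SNHG5, which carries the box C/D snoRNAs SNORD50A and SNORD50B, had 77.9, 68.0 and 77.5 CPM with DMSO and 161, 114 and 108 CPM with i-BET858. The groups did not overlap, and the log2 fold change was 0.78 (SE 0.16, adjusted p 0.0031). SNHG8, host of SNORA24, had 24.8, 32.2 and 28.7 CPM with DMSO and 61.1, 48.8 and 38.0 CPM with i-BET858, again without overlap. Its log2 fold change was 0.79 (SE 0.18, adjusted p 0.0066). The calls of SNHG5 and SNHG8 held in every alternative tried but the 2-fold minimum, which neither reached. Because 37.6% of the exon bases of SNHG8 lie opposite exons of PRSS12, and the strand setting of the counting is not given in the sources used here, reads of PRSS12 could be among its counts. PRSS12 itself had 88.2 CPM with i-BET858 and 83.8 CPM with DMSO at 4 h, with a log2 fold change of 0.08 (SE 0.16, adjusted p 0.77).

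SNHG9 lies head to head with the ribosomal protein gene RPS2 and hosts SNORA78. Its levels were 2.27, 2.68 and 3.35 CPM with DMSO and 5.73, 4.56 and 10.3 CPM with i-BET858, without overlap, and the log2 fold change was 1.32 (SE 0.35, adjusted p 0.015). RPS2 rose as well at 4 h (log2 fold change 0.60, SE 0.09, adjusted p 0.00033). SNHG29 had 120, 117 and 133 CPM with DMSO and 171, 151 and 187 CPM with i-BET858, a log2 fold change of 0.46 (SE 0.13, adjusted p 0.019). EPB41L4A-AS1, host of SNORA13, had 8.84, 7.63 and 7.39 CPM with DMSO and 12.8, 10.004 and 12.3 CPM with i-BET858, a log2 fold change of 0.56 (SE 0.18, adjusted p 0.038). None of the 3 overlapped between groups, but each was lost when some single libraries were left out. SNHG9 was lost without DMSO replicate 1 (adjusted p 0.063) or 2 (0.051) or i-BET858 replicate 3 (0.055). SNHG29 was lost without DMSO replicate 1 (0.063) or 2 (0.074) or i-BET858 replicate 3 (0.058). EPB41L4A-AS1 was lost in 6 of 9 such fits, those without any one of the DMSO libraries, i-BET858 replicates 1 or 3, or i-BET151 replicate 1, with adjusted p of 0.056 to 0.12. It was also lost with total library size (0.13), with no filter on low counts (0.15), with replicates 1 and 2 only (0.095) and with only the 2 groups compared (0.051). Of the exon bases of EPB41L4A-AS1, 51.2% lie opposite EPB41L4A, which fell at 4 h (log2 fold change −1.004, SE 0.27, adjusted p 0.016). The part of EPB41L4A in the counts of EPB41L4A-AS1 was not tested.

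With the replicate number as a block, 16 of 31 members were called after 4 h of i-BET858 (13 higher and 3 lower), beside 45.4% of all genes. The 6 above were among them. Those added were KCNQ1OT1 (log2 fold change 1.38, adjusted p 0.0024), SNHG1 (0.90, 0.019), SNHG19 (0.77, 0.0010), SNHG6 (0.56, 0.0017), SNHG7 (0.48, 0.016), GAS5 (0.48, 0.0049) and DANCR (0.29, 0.027) on the higher side. SNHG20 (−1.14, 0.028), SNHG17 (−0.55, 0.015) and SNHG16 (−0.45, 0.0028) were added on the lower side. With replicates 1 and 2 only, 13 of 31 were called, beside 41.9% of all genes. SNHG1, host of 8 snoRNAs, had 21.6, 47.2 and 21.1 CPM with DMSO and 97.6, 74.1 and 20.7 CPM with i-BET858. Replicates 1 and 2 were above their DMSO libraries and replicate 3 was not, so the groups overlapped (log2 fold change 1.10, SE 0.59, adjusted p 0.19 without the block). GAS5, host of 11 snoRNAs, had 92.1, 117 and 72.2 CPM with DMSO and 175, 151 and 80.7 CPM with i-BET858. Each treated library was above the DMSO library of its number, but replicate 3 was below replicates 1 and 2 of DMSO (log2 fold change 0.53, SE 0.32, adjusted p 0.24). KCNQ1OT1 had 1.20, 3.79 and 1.44 CPM with DMSO and 6.24, 9.18 and 2.24 CPM with i-BET858 (log2 fold change 1.45, SE 0.62, adjusted p 0.10).

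i-BET151 at the same dose and time raised 1 member, SNHG8, and lowered none, beside 7.81% of all genes called higher and 8.43% called lower. SNHG8 had 48.9, 42.6 and 38.1 CPM with i-BET151, all above the 3 DMSO libraries given above (log2 fold change 0.59, SE 0.18, adjusted p 0.047). The call was lost in 6 of 9 fits with a library left out, with adjusted p of 0.067 to 0.18. Those were the fits without any one of the DMSO libraries, i-BET151 replicates 1 or 2, or i-BET858 replicate 2. It was also lost with total library size. No member was called with a change of at least 2-fold, beside 7.1% of all genes. SNHG5 had 118, 101 and 97.1 CPM, above each DMSO library, and narrowly missed the threshold (log2 fold change 0.50, SE 0.16, adjusted p 0.053). SNHG12 had 8.92, 9.38 and 5.17 CPM, also without overlap (1.26, SE 0.43, adjusted p 0.073). DESeq2 called both SNHG5 (adjusted p 0.028) and SNHG12 (0.014), as did the fit of all 18 libraries (0.035 and 0.028). At an unadjusted p under 0.05 there were 6 members of 31, beside 5067 of 17192 genes, a larger share. With the replicate block, 9 were called, 6 higher and 3 lower, beside 32.7% of all genes, and with replicates 1 and 2 only 9 were called, beside 25.9%. The higher ones under the block were KCNQ1OT1, SNHG12, SNHG8, SNHG19, SNHG5 and EPB41L4A-AS1, and the lower ones SNHG20, SNHG17 and SNHG16.

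**Figure D2:**
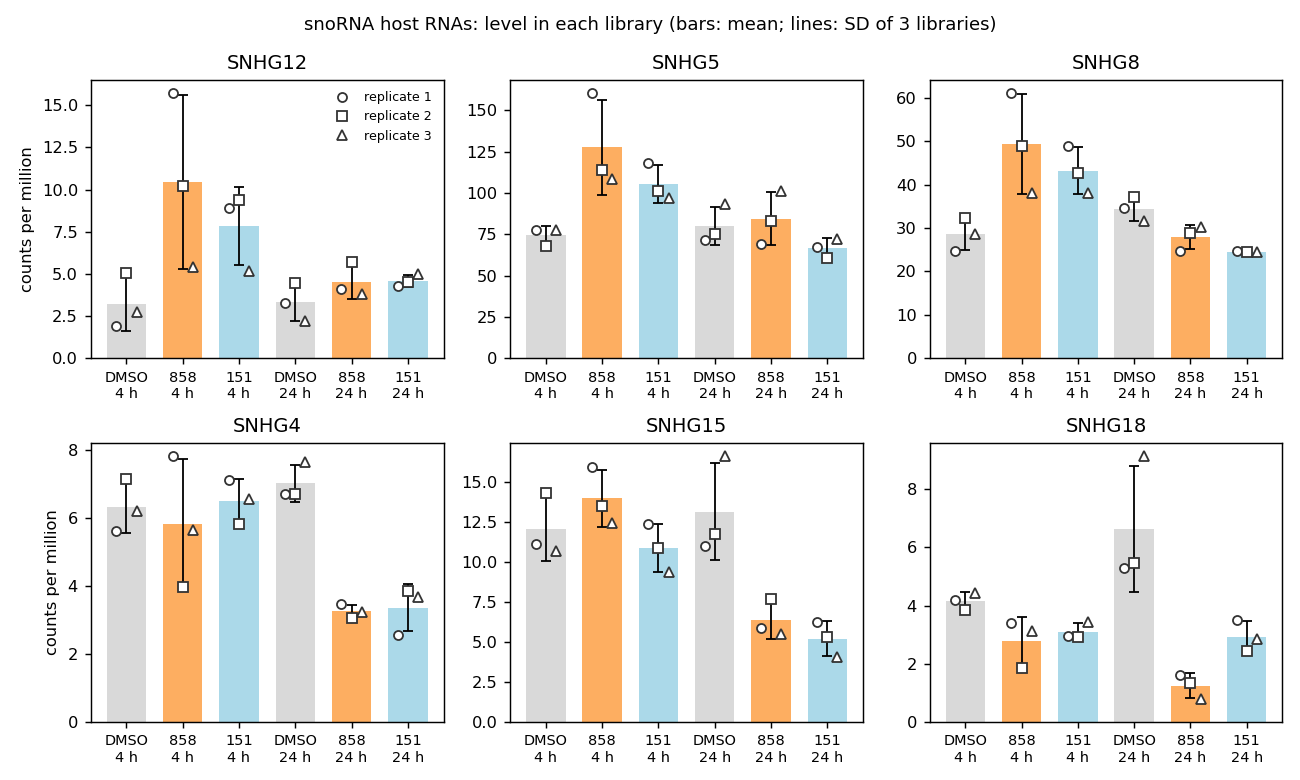
Level in CPM (y axis) of 6 snoRNA host RNAs in each group (x axis), with bars for the mean, lines for the SD of 3 libraries and symbols for replicates 1, 2 and 3. SNHG12, SNHG5 and SNHG8 are above DMSO in all 3 libraries with i-BET858 at 4 h, and SNHG4, SNHG15 and SNHG18 are below DMSO in all 3 libraries with either inhibitor at 24 h.

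After 24 h, i-BET858 lowered 7 snoRNA hosts, SNHG18, SNHG4, SNHG15, SNHG11, SNHG17, SNHG16 and SNHG8, as well as PVT1, and raised MALAT1 and NEAT1. i-BET151 also lowered 7 hosts, with SNHG7 in place of SNHG16, as well as H19 and PVT1, and raised MALAT1. Among the 30 members tested, 10 were called with each inhibitor. For i-BET858 these were 2 rises and 8 falls, and for i-BET151 1 rise and 9 falls. Of all genes, i-BET858 moved 20.5% up and 21.3% down by the same rule, and i-BET151 moved 17.2% up and 16.6% down. The 8 falls of 30 with i-BET858 are near the share of all genes and are read as no result about the members as a group. Of the 6 hosts that rose after 4 h of i-BET858, SNHG8 was the one called lower at 24 h. Changes of at least 2-fold were called in 6 members with each inhibitor, beside 18.8% of all genes for i-BET858 and 13.7% for i-BET151. The median log2 fold change of the tested members was −0.14 and −0.30, against −0.01 and 0.00 over all genes. Both comparisons use the same 3 DMSO libraries, so they are not independent of each other.

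SNHG18, a host of 1 box C/D snoRNA on chromosome 5, had the largest fall of the members with i-BET858. It had 5.30, 5.45 and 9.14 CPM with DMSO, 1.61, 1.33 and 0.789 CPM with i-BET858 and 3.51, 2.43 and 2.85 CPM with i-BET151. Neither inhibitor overlapped with DMSO, and the i-BET858 libraries were all below the i-BET151 libraries. The log2 fold change was −2.45 (SE 0.34, adjusted p 0.00022) with i-BET858 and −1.20 (SE 0.32, adjusted p 0.015) with i-BET151. The second call was lost without DMSO replicate 3 (log2 fold change −0.87, adjusted p 0.059) and without i-BET151 replicate 2 (−1.07, 0.065). In replicates 1 and 2 only, the log2 fold change with i-BET858 was −1.89 (adjusted p 1.5e-05). SEMA5A, whose start lies 95 bases away on the other strand, had a log2 fold change of −0.49 (SE 0.18, adjusted p 0.053) with i-BET858 and of −0.06 (SE 0.18, adjusted p 0.84) with i-BET151.

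SNHG4, host of 2 box H/ACA snoRNAs, had 6.69, 6.70 and 7.64 CPM with DMSO, 3.46, 3.05 and 3.22 CPM with i-BET858 and 2.56, 3.83 and 3.67 CPM with i-BET151. SNHG15, host of SNORA9, had 11.02, 11.8 and 16.6 CPM with DMSO, 5.90, 7.69 and 5.50 CPM with i-BET858 and 6.22, 5.32 and 4.04 CPM with i-BET151. In both genes every treated library was below every DMSO library. On the log2 scale, SNHG4 fell by 1.15 (SE 0.21, adjusted p 0.0015) and by 1.09 (SE 0.21, adjusted p 0.0027), i-BET858 first. SNHG15 fell by 1.09 (SE 0.23, adjusted p 0.0034) and by 1.36 (SE 0.24, adjusted p 0.0013). These 4 calls held in every alternative tried. Of the exon bases of SNHG4, 14% are shared with MATR3 on the same strand, and the part of MATR3 in its counts was not tested.

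SNHG11 and SNHG17 are neighbours on chromosome 20 and host box H/ACA snoRNAs, among them copies of SNORA71. SNHG11 had 12.0, 11.9 and 16.97 CPM with DMSO, 5.61, 7.61 and 8.63 CPM with i-BET858 and 7.15, 5.90 and 6.26 CPM with i-BET151. Its log2 fold change was −0.95 (SE 0.22, adjusted p 0.0047) and −1.11 (SE 0.22, adjusted p 0.0027). SNHG17 had 21.4, 22.9 and 18.1 CPM with DMSO, 12.6, 14.6 and 9.77 CPM with i-BET858 and 13.8, 11.1 and 8.47 CPM with i-BET151. Its log2 fold change was −0.79 (SE 0.20, adjusted p 0.0093) and −0.92 (SE 0.20, adjusted p 0.0054). Neither gene overlapped between DMSO and an inhibitor at 24 h, and all 4 calls held in every alternative tried but the 2-fold minimum, which SNHG11 reached with i-BET151 alone and SNHG17 with neither. SNHG17 was already below DMSO in all libraries at 4 h, with log2 fold changes of −0.54 (adjusted p 0.065) with i-BET858 and −0.55 (adjusted p 0.094) with i-BET151.

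SNHG8, higher at 4 h, was lower at 24 h. It had 34.5, 37.2 and 31.7 CPM with DMSO, 24.8, 28.9 and 30.2 CPM with i-BET858 and 24.7, 24.6 and 24.5 CPM with i-BET151, again without overlap. The log2 fold change was −0.34 (SE 0.11, adjusted p 0.032) with i-BET858 and −0.51 (SE 0.11, adjusted p 0.0055) with i-BET151. The first call was lost in 6 of 9 fits with a library left out, those without replicate 1 or 2 of any of the 3 groups (adjusted p 0.057 to 0.14), and with no filter on low counts (0.16), only the 2 groups compared (0.056) and all 18 libraries in 1 fit (0.14). PRSS12, opposite SNHG8, fell by 0.70 with both inhibitors at 24 h (adjusted p 0.0017 and 0.0023), and its part in the counts of SNHG8 was not tested. SNHG7, which lies partly opposite DIPK1B (30.3% of exon bases), had 64.2, 71.0 and 64.5 CPM with DMSO and 51.5, 44.9 and 48.8 CPM with i-BET151 (log2 fold change −0.48, SE 0.11, adjusted p 0.0064). DIPK1B fell by 1.30 on the log2 scale with i-BET151 (adjusted p 0.0015) and its part was likewise not tested. SNHG16 had 118, 127 and 191 CPM with DMSO and 90.6, 86.2 and 121 CPM with i-BET858, where the highest treated library was above the lowest DMSO library (log2 fold change −0.59, SE 0.21, adjusted p 0.040). That call was lost without DMSO replicate 3 (log2 fold change −0.31, adjusted p 0.19), i-BET858 replicate 1 (adjusted p 0.13) or 2 (0.13), or i-BET151 replicate 2 (0.059), and with only the 2 groups compared.

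MALAT1 rose with both inhibitors at 24 h and had not changed detectably at 4 h. At 24 h it had 136, 132 and 65.3 CPM with DMSO, 324, 318 and 250 CPM with i-BET858 and 234, 267 and 200 CPM with i-BET151. Every treated library was above every DMSO library, and DMSO replicate 3 was the lowest of all. The log2 fold change was 1.39 (SE 0.24, adjusted p 0.00083) with i-BET858 and 1.06 (SE 0.23, adjusted p 0.0055) with i-BET151, and both held in every alternative tried. With replicates 1 and 2 only they were 1.23 and 0.87. At 4 h the means were 111 ± 15.8 CPM with DMSO, 112 ± 3.84 CPM with i-BET858 and 121 ± 9.31 CPM with i-BET151 (SD, n = 3), and the 95% intervals of the log2 fold changes were −0.26 to 0.29 and −0.15 to 0.40.

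NEAT1 had 81.0, 74.6 and 14.0 CPM with DMSO at 24 h, 205, 215 and 102 CPM with i-BET858 and 169, 173 and 70.9 CPM with i-BET151. Within each replicate number the treated library was above DMSO, but the level of replicate 3 was lower in all 3 groups, and with i-BET151 it fell below 2 of the DMSO libraries. The log2 fold change was 1.59 (SE 0.55, adjusted p 0.040) with i-BET858 and 1.27 (SE 0.55, adjusted p 0.10) with i-BET151. With the replicate block these were 1.80 (adjusted p 1.6e-05) and 1.44 (adjusted p 0.00013), and with replicates 1 and 2 only 1.40 (adjusted p 2.0e-08) and 1.10 (adjusted p 2.1e-07). Without the block, the call with i-BET858 was lost without i-BET858 replicate 1 (adjusted p 0.10) or 2 (0.11), DMSO replicate 2 (0.056) or i-BET151 replicate 2 (0.052), with DESeq2, with total library size and with only the 2 groups compared. Of the 18 genes of paraspeckle proteins, 5 rose and 5 fell with i-BET858 at 4 h, beside 14.5% and 16.3% of all genes, and 2 rose and 3 fell at 24 h, beside 20.5% and 21.3%. At 24 h CIRBP rose the most (log2 fold change 1.30, SE 0.12, adjusted p 1.4e-05) and DAZAP1 fell the most (−1.04, SE 0.12, adjusted p 8.3e-05). The median over the list was 0.11 at 4 h and −0.02 at 24 h.

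**Figure D3:**
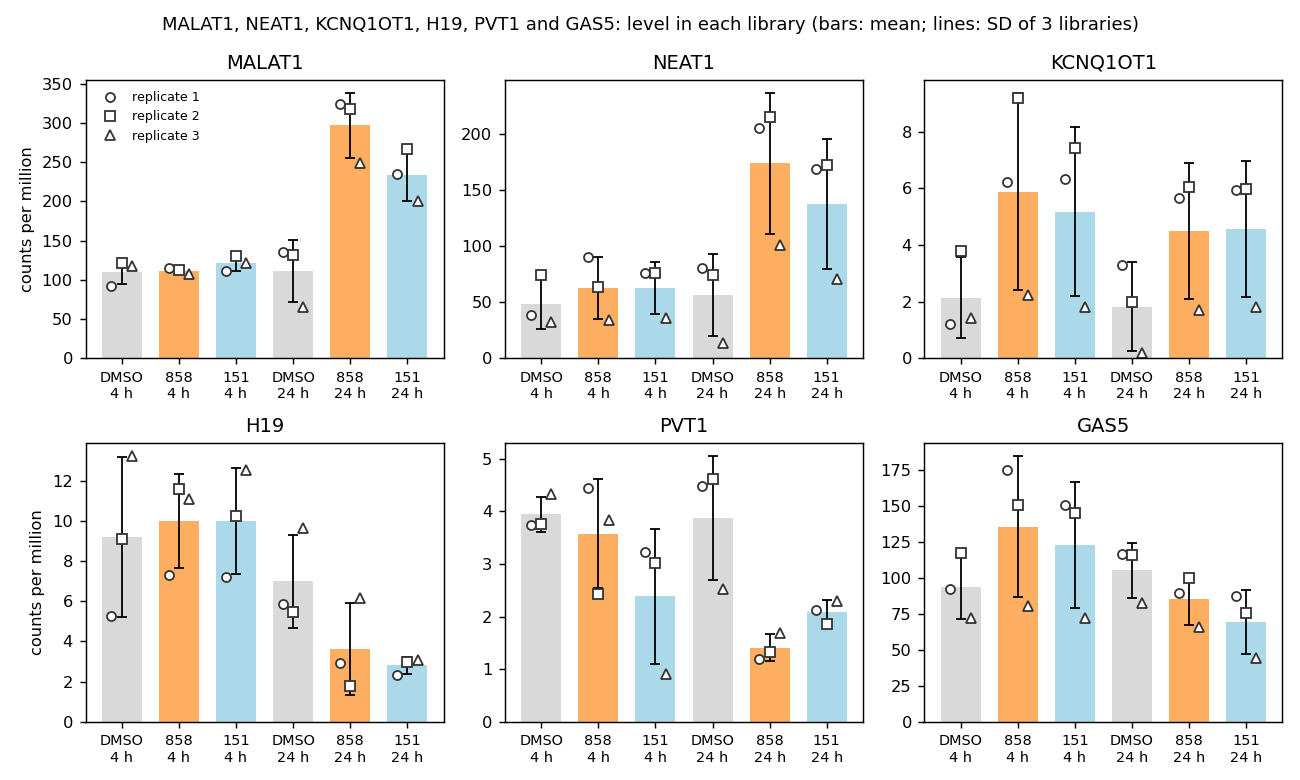
Level in CPM (y axis) of MALAT1, NEAT1, KCNQ1OT1, H19, PVT1 and GAS5 in each group (x axis), with bars for the mean, lines for the SD of 3 libraries and symbols for replicates 1, 2 and 3. MALAT1 is above DMSO in all 6 treated libraries at 24 h, and the triangles of replicate 3 are the lowest of their group for GAS5 in all 6 groups and for NEAT1 in all 6.

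Of the imprinted RNAs, H19 had 5.87, 5.45 and 9.65 CPM with DMSO at 24 h and 2.34, 2.98 and 3.08 CPM with i-BET151, without overlap (log2 fold change −1.35, SE 0.41, adjusted p 0.028). That call was lost without DMSO replicate 3 (log2 fold change −1.02, adjusted p 0.10), i-BET151 replicate 1 (0.091) or i-BET151 replicate 2 (0.073). With i-BET858 it had 2.94, 1.78 and 6.17 CPM, where the third library overlapped with DMSO (−0.99, SE 0.41, adjusted p 0.075). With the block the i-BET858 change was called (−1.07, adjusted p 0.0051), as it was by DESeq2 without the block (−0.99, adjusted p 0.042). KCNQ1OT1 had 3.30, 1.99 and 0.191 CPM with DMSO, 5.68, 6.05 and 1.73 CPM with i-BET858 and 5.93, 5.99 and 1.80 CPM with i-BET151. It was higher in each replicate number but not called (1.26, SE 0.76, and 1.30, SE 0.77, adjusted p 0.22 for both). With the block both were called (1.48, adjusted p 0.0029, and 1.53, adjusted p 0.0029). Among 7 tested genes near H19, KCNQ1OT1, MEG3 or the snoRNA host SNHG14, 2 rose and 2 fell with i-BET858 at 24 h, beside 20.5% and 21.3% of all genes. The largest fall was in SLC22A18 (−0.97, SE 0.18, adjusted p 0.0015). The largest rise was in SNRPN (adjusted p 0.029), whose level with DMSO, 0.0426 ± 0.0371 CPM (SD, n = 3), lies under the floor of 3 counts in a library, so no fold is given.

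PVT1 had 4.48, 4.61 and 2.52 CPM with DMSO at 24 h, 1.20, 1.33 and 1.70 CPM with i-BET858 and 2.12, 1.85 and 2.30 CPM with i-BET151. All treated libraries were below all DMSO libraries. The log2 fold change was −1.49 (SE 0.31, adjusted p 0.0027) with i-BET858, held in every alternative tried, and −0.90 (SE 0.30, adjusted p 0.041) with i-BET151. The second call was lost in 6 of 9 fits with a library left out, those without replicate 1 or 2 of any of the 3 groups (adjusted p 0.055 to 0.15), and with no filter on low counts (0.11), only the 2 groups compared (0.056) and all 18 libraries in 1 fit (0.088). In replicate 3 the log2 difference was −0.55 with i-BET858, against −1.85 and −1.75 in replicates 1 and 2.

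With the replicate block at 24 h, 18 of 30 members were called for i-BET858 (6 rises and 12 falls) and 20 for i-BET151 (4 rises and 16 falls), beside 52% and 45.9% of all genes, and all those called without the block stayed called. With replicates 1 and 2 only, 19 and 20 were called, beside 60.7% and 54.2% of all genes. Hosts added by the block on the lower side included GAS5 (−0.35, adjusted p 0.014, and −0.66, adjusted p 0.00027), SNHG20 (−0.87, adjusted p 0.040, and −1.25, adjusted p 0.0086) and SNHG29 (−0.27, adjusted p 0.019, and −0.31, adjusted p 0.010). SNHG9 was added on the higher side with both inhibitors (1.00, adjusted p 0.0026, and 0.76, adjusted p 0.016).

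In the unblocked test described above, 14 of the 31 tested members were called in none of these 4 comparisons. Other settings without the block called some of them. With DESeq2, SNHG19 (adjusted p 0.023), KCNQ1OT1 (0.029) and SNHG6 (0.038) were called higher with i-BET858 at 4 h, SNHG20 lower with i-BET151 at 4 h (0.041) and at 24 h (0.041), and GAS5 (0.023) and SNHG10 (0.032) lower with i-BET151 at 24 h. The fit of all 18 libraries called SNHG19 higher with i-BET858 at 4 h (0.032), total library size called SNHG10 lower with i-BET151 at 24 h (0.034), and no filter on low counts or replicates 1 and 2 only called GAS5, KCNQ1OT1, SNHG1, SNHG6, SNHG19 and SNHG20 in at least 1 comparison each. With replicates 1 and 2 only, SNHG3, SNHG10 and SNHG30 were called as well. SNHG20 was below DMSO in all libraries of all 4 comparisons, with log2 fold changes of −1.40 (SE 0.54, adjusted p 0.11) to −0.84 (SE 0.45, adjusted p 0.17). SNHG19 lay between −0.07 and 0.86, SNHG6 between −0.28 and 0.57, SNHG10 between −0.49 and 0.06, SNHG3 between −0.02 and 0.30, SNHG30 between −0.35 and −0.19 and SNHG31 between −0.27 and 0.47. DANCR lay between −0.14 and 0.29 and SNHG14, which spans the 83 snoRNA genes of the Prader-Willi region, between −0.09 and 0.24. The 95% intervals of DANCR and SNHG14 lay within −0.42 to 0.55 and −0.50 to 0.61. SNHG21 (0.14 to 0.52) and SNHG26 (−0.53 and 0.93 at 4 h) had at most 25 counts in a library, and wide intervals (−1.74 to 2.77 for SNHG21 with i-BET858 at 4 h).

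The third question was whether the effect changed between 4 and 24 h, tested as an interaction over all 18 libraries. With i-BET858 the effect differed for 8 members, 1 upward (MALAT1) and 7 downward, beside 27.2% of all genes. With i-BET151 it differed for 6, again MALAT1 upward and 5 hosts downward, beside 13.8% of all genes. SNHG8 went from higher to lower, with a change of −1.09 (SE 0.22, adjusted p 0.0013) with i-BET858 and of −1.08 (SE 0.22, adjusted p 0.0034) with i-BET151. SNHG5 had a log2 fold change of 0.78 at 4 h and 0.03 at 24 h with i-BET858 (95% interval at 24 h −0.31 to 0.38), and of 0.50 and −0.29 with i-BET151 (−0.64 to 0.06). SNHG15 and SNHG4 went from near DMSO to lower. With the block, 13 members were called with each inhibitor, all those above among them, beside 40.3% of all genes with i-BET858 and 28.4% with i-BET151. Without single libraries the counts ranged from 4 to 9 and from 3 to 7, the lowest without i-BET858 replicate 1 of either time and, for i-BET151, without any one of DMSO replicate 2 at 4 h, DMSO replicate 3 at 24 h, i-BET151 replicate 1 at 4 h and i-BET151 replicates 1 or 2 at 24 h. The shares of all genes in these fits are not given here, so these counts are not read as a result about the members.

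**Figure D4:**
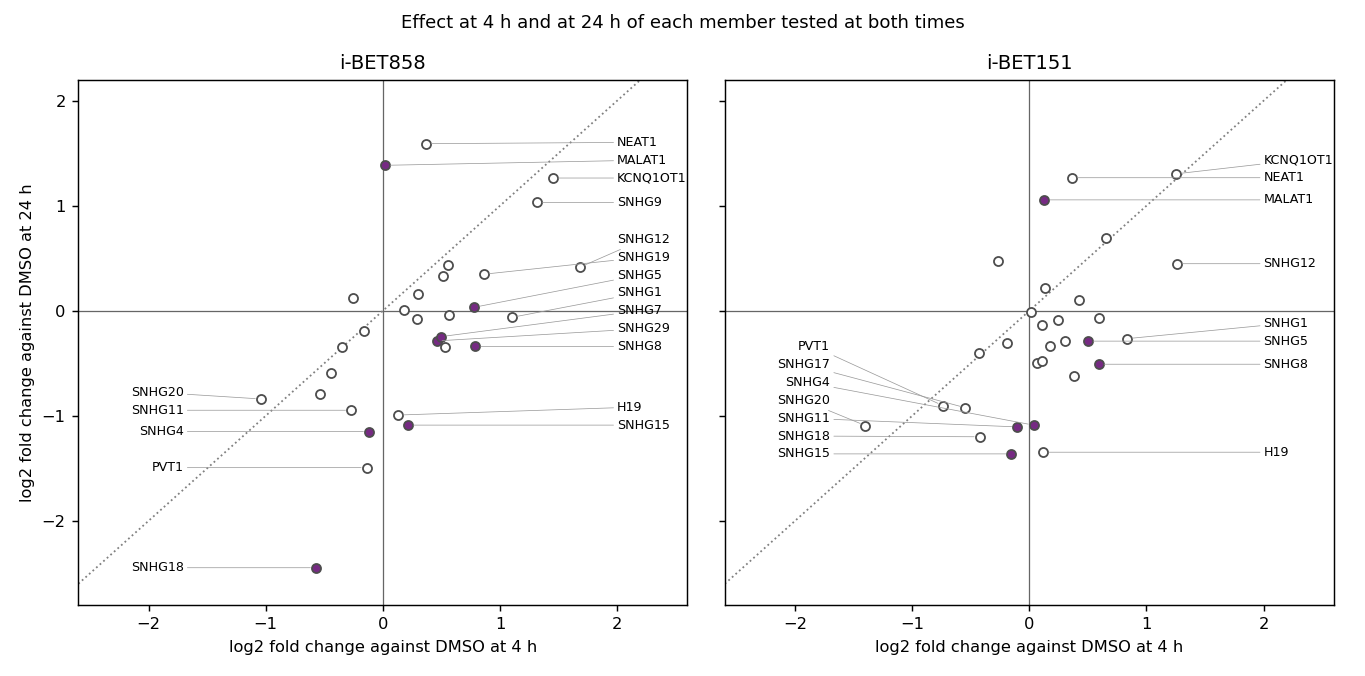
Log2 fold change against DMSO at 4 h (x axis) and at 24 h (y axis) of each member tested at both times, for i-BET858 and i-BET151; filled points have a called change of effect between the times, and the dotted line marks equal effects. MALAT1 lies above the line, and the other filled points, all snoRNA hosts, lie below it.

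Compared with each other, i-BET858 and i-BET151 differed for 0 members at either time, beside 0.971% of all genes at 4 h and 0.21% at 24 h. At an unadjusted p under 0.05 there were 1 member at 4 h, beside 2042 of 17192 genes, and 2 at 24 h, beside 1953 of 17157 genes, both in edgeR. DESeq2 called 0 and 1, and the shares of all genes in DESeq2 are not given here. Among the members tested at 24 h, SNHG18 had the largest difference (i-BET858 lower by a log2 value of −1.25, SE 0.34, 95% interval −1.99 to −0.51, unadjusted p 0.0036, adjusted p 0.17). It was the one that DESeq2 called (adjusted p 0.023). At 4 h the highest value of a member was 1.46, in SNHG26, which had at most 25 counts in a library, and none was called. For MALAT1 at 24 h the difference was 0.33 (95% interval −0.18 to 0.84), for NEAT1 0.32 (−0.87 to 1.52) and for PVT1 −0.59 (−1.27 to 0.09). With replicates 1 and 2 only, SNHG18 (−1.01, adjusted p 0.023), MALAT1 (0.36, 0.013) and NEAT1 (0.305, 0.022) were called. At 4 h, SNHG29 was higher with i-BET858 than with i-BET151 under the replicate block (0.29, adjusted p 0.033).

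The protein-coding hosts of snoRNAs include ribosomal protein and translation factor genes. With i-BET858 at 4 h, 23 of 48 tested rose and 4 fell, beside 14.5% and 16.3% of all genes (median log2 fold change 0.36, against 0.02 over all genes). At 24 h 6 rose and 7 fell, beside 20.5% and 21.3% of all genes (median −0.17, against −0.01). With i-BET151, 7 rose and 2 fell at 4 h, beside 7.81% and 8.43% of all genes, and 1 rose and 10 fell at 24 h, beside 17.2% and 16.6%. At 24 h with i-BET858, RABGGTB rose the most (0.66, SE 0.23, adjusted p 0.040) and PPAN, a ribosome assembly factor, fell the most (−0.91, SE 0.29, adjusted p 0.026). Of the proteins that bind and assemble snoRNAs (18 genes), 2 rose and 6 fell at 4 h with i-BET858, beside 14.5% and 16.3% of all genes, and 0 rose and 7 fell at 24 h, beside 20.5% and 21.3%. GAR1, a core protein of H/ACA particles, fell the most at 24 h (−0.98, SE 0.17, adjusted p 0.00092) and had fallen at 4 h (−1.31, SE 0.18, adjusted p 0.00025).

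Nonsense-mediated decay and the nuclear exosome are pathways of RNA decay. Of 18 genes of nonsense-mediated decay, 2 rose and 7 fell with i-BET858 at 4 h (median −0.27), beside the same 14.5% and 16.3% of all genes. At 24 h 7 rose and 2 fell (median 0.16), beside 20.5% and 21.3%. SMG6, an endonuclease of the pathway, rose the most at 24 h (0.96, SE 0.12, adjusted p 9.3e-05). MAGOHB, a subunit of the exon junction complex, fell the most (−2.06, SE 0.16, adjusted p 4.2e-06). Of 18 genes of the nuclear exosome and its adaptors, 1 rose and 8 fell at 4 h (median −0.55), beside 14.5% and 16.3% of all genes, and 2 rose and 7 fell at 24 h (median −0.36), beside 20.5% and 21.3%. EXOSC5 fell the most at 24 h (−1.002, SE 0.14, adjusted p 0.00024) and EXOSC6, another core subunit, rose the most (0.47, SE 0.10, adjusted p 0.0038), having fallen at 4 h (−0.58, SE 0.13, adjusted p 0.0054). Their part in the levels of the host RNAs was not tested.

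A gene whose annotated start lay within 2 kb on the other strand was counted for 13 neighbours, of which 9 were tested. With i-BET858 at 4 h, 3 rose (RPS2 beside SNHG9, SLC3A2 beside SNHG1 and GLRX5 beside SNHG10) and 2 fell (ZBTB37 beside GAS5 and BARD1 beside SNHG31), against 14.5% and 16.3% of all genes. With i-BET151 at 4 h 1 rose and 0 fell, beside 7.81% and 8.43%. At 24 h 2 rose and 0 fell with i-BET858, beside 20.5% and 21.3%. With i-BET151 at 24 h 1 rose (ZBTB37, log2 fold change 0.82, SE 0.17, adjusted p 0.0034) and 0 fell, beside 17.2% and 16.6%. SLC3A2, whose start is 51 bases from that of SNHG1, had log2 fold changes of 0.52 (SE 0.11, adjusted p 0.0041) at 4 h and 0.65 (SE 0.10, adjusted p 0.00030) at 24 h with i-BET858, while i-BET151 gave 0.19 at 4 h and −0.15 at 24 h, neither called (adjusted p 0.27 for both). ZBTB37 fell at 4 h (−0.95, SE 0.22, adjusted p 0.0060) and rose at 24 h (0.49, SE 0.17, adjusted p 0.038) with i-BET858. GAS5, at the same promoter region, had differences of the opposite sign to these at both times, which were not called with i-BET858 (0.53, adjusted p 0.24, and −0.34, adjusted p 0.28) in the unblocked test and were called with the block.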

How the data were processed

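The deposited values are raw counts per gene that the authors made from poly-A, paired-end reads with STAR on GRCh38. The annotation and strand setting are not given in the sources used here. Each table held 1 time point, read from its name. Of 58825 genes, 58472 (99.4%) matched GENCODE 44. Counts were normalized by TMM, filtered with filterByExpr and tested with edgeR 4.0.16 in R 4.3.3 (quasi-likelihood, 3 groups per time in 1 fit, all 18 libraries for the interaction), with Benjamini-Hochberg adjustment over all genes and a threshold of 0.05. The test of i-BET858 at 4 h was tried on counts simulated from the real means, with 200 genes changed. It recovered 88 of 100 genes changed 3-fold and 48 of 100 changed 2-fold, with 9 false calls. Many 2-fold changes can thus be missed, so a member that was not called is not shown to be unchanged. Differences within a replicate number are of log2 CPM with a prior count of 2, and those of replicate 3 of log2(CPM + 0.05).

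Deviations from the group means had r of 0.141 to 0.365 at 4 h and 0.161 to 0.352 at 24 h between same-numbered libraries. Between unlike-numbered libraries r was −0.341 to 0.233 at 4 h (median −0.225) and −0.329 to 0.326 at 24 h (median −0.247). The highest of these lie inside the same-number ranges, so r does not show that the numbers match libraries one by one. The block was fitted because every same-number r passed a limit of 0.1. The blocked fit is given where it changed a call, and the calls it added depend on this choice. The study calls the replicates biological, with no further detail, so p-values measure the spread between these libraries. The alternatives were DESeq2 1.42.0, its size factors, total library size, other filters, fewer or more groups in the fit, the block, replicates 1 and 2 only, a 2-fold minimum and each library left out. The rule for the members uses symbols only, but the members, lists and tests were chosen with earlier results of these data known. All members are named, and from each other list the called genes with the largest rise and fall with i-BET858 at 24 h.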

Additional observations from a re-analysis of the deposited data

Results flagged for a closer look

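For 9 members, the effect of an inhibitor on the log2 scale differed between 4 and 24 h in the interaction test of edgeR (adjusted p under 0.05), which marked them for a closer look. With i-BET858 the change from 4 to 24 h was 1.41 for MALAT1 (SE 0.29, adjusted p 0.0013), −1.83 for SNHG18 (SE 0.43, adjusted p 0.0041), −1.26 for SNHG15 (SE 0.30, adjusted p 0.0044) and −1.09 for SNHG8 (SE 0.22, adjusted p 0.0013). These 4 held without each of the 18 libraries in turn. It was −0.99 for SNHG4 (adjusted p 0.033), −0.70 for SNHG5 (0.028), −0.70 for SNHG7 (0.029) and −0.70 for SNHG29 (0.038), and these 4 were lost without single libraries: in 9 fits of 18 for SNHG4 (adjusted p up to 0.11), 5 for SNHG5 (0.093), 5 for SNHG7 (0.086) and 7 for SNHG29 (0.12). i-BET858 replicate 1 at 4 h and at 24 h was among those libraries for each of the 4. SNHG4 was also lost with no filter on low counts (0.15) and with replicates 1 and 2 only (0.067).

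With i-BET151 the change was −1.19 for SNHG15 (SE 0.30, adjusted p 0.014) and −1.08 for SNHG8 (SE 0.22, adjusted p 0.0034), which held without each library. It was 0.94 for MALAT1 (adjusted p 0.034), −0.98 for SNHG11 (0.026), −1.10 for SNHG4 (0.033) and −0.77 for SNHG5 (0.031). The call was lost in 6 fits of 18 for MALAT1 (adjusted p up to 0.098), 5 for SNHG11 (0.073), 7 for SNHG4 (0.091) and 5 for SNHG5 (0.085). MALAT1 was also lost with total library size (0.050) and with only the 4 groups used (0.061), and SNHG11 (0.076) and SNHG4 (0.12) with no filter on low counts. The effects of the 2 inhibitors share the DMSO libraries, so the changes of the same gene with both are not independent.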

How the results depend on the processing

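The counts of members called moved by more than 1.5 times under several alternatives, while no called change of a member reversed. In the order i-BET858 and i-BET151 at 4 h, then i-BET858 and i-BET151 at 24 h, the main counts were 6, 1, 10 and 10. With the replicate block they were 16, 9, 18 and 20, and with replicates 1 and 2 only 13, 9, 19 and 20. With a minimum of 2-fold they were 2, 0, 6 and 6. At 4 h, DESeq2 gave 10 and 4, and no filter on low counts 14 and 8. For i-BET151 at 4 h, the fit of all 18 libraries gave 3, a minimum of 10 counts 2, only the 2 groups compared 2 and total library size 0. Leaving out single libraries gave 2 to 10 and 0 to 3 at 4 h, and 7 to 11 with each inhibitor at 24 h. For the change of effect, the counts of 8 and 6 became 13 and 13 with the block, 15 and 11 with replicates 1 and 2 only, 4 and 3 with a minimum of 2-fold, and 4 to 9 and 3 to 7 without single libraries. Between the inhibitors, 0 became 1 with the block at 4 h, and at 24 h 1 with DESeq2 and 3 with replicates 1 and 2 only. The cause of these shifts was not tested. Against DMSO, shares of all genes are given above for the main test, the block, replicates 1 and 2 only and 2-fold changes. For the change of effect they are given for the main test and the block, and between the inhibitors for the main test. Other counts here have no such share beside them and are not read as results about the members.

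Apart from the 2-fold minimum, the 41 called changes of single members had 850 values under the alternatives. Of these, 734 stayed past the threshold, 116 did not and 0 reversed, and 22 of the 41 held in every one of them. The replicate block kept all 41. Low counts limit SNHG21, SNHG22, SNHG25 and SNHG26, and exons opposite another gene limit SNHG6, SNHG7, SNHG8, SNHG16 and EPB41L4A-AS1. Exons shared with MATR3 on the same strand limit SNHG4.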
